A study of Mus musculus with 39 samples.

Results

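The genes described here carry peptides to the cell surface for T cells, in the MHC class I and class II pathways of mouse microglia. The set was given by name: H2-K1, H2-D1, B2m, Tap1 and Tapbp for class I, and H2-Aa, H2-Ab1, H2-Eb1, Cd74 and Ciita for class II. A symbol counted as measured when it had a row in the raw count table of 16144 genes. Of the 10 listed genes, 9 had a row and all 9 passed the filter on low counts, among 13034 genes tested. Ciita, the regulator that switches on class II genes, is not analysed here.

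The cells were microglia from neonatal C57BL/6 mice, the macrophages of the brain, grown in T75 flasks with L929 cell supernatant. Donors sat in 24-well plates and were given Atto-488 alpha-synuclein, a neuronal protein found in Lewy bodies, at 1 µM for 14 h. Acceptors sat in T25 flasks, at a higher cell number per vessel, and were stained with a violet tracer dye for 15 min. Both were collected at 0, 15, 30, 60, 150 and 300 min of co-culture in which the cells did not touch, with 3 libraries per time, and 3 control libraries were collected at 0 min. The 13 groups thus hold 39 libraries: 18 of donors, 18 of acceptors and 3 of the control. All groups share strain, age and preparation. Donors and acceptors differ in alpha-synuclein, dye, vessel and cell number at once, and these cannot be told apart. The sources used here do not give the control's vessel, density and dye treatment, whether the 3 libraries of a group came from separate cultures, or a control at a later time. The p-values therefore measure the spread between libraries, which may be technical.

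Class I molecules are made by nearly all nucleated cells. A heavy chain, H2-K or H2-D in this strain, pairs with beta-2 microglobulin and is loaded with peptides that the TAP transporter brings into the endoplasmic reticulum, with tapasin holding the empty molecule to the transporter. Class II molecules, I-A and I-E in the mouse, are pairs of an alpha and a beta chain, escorted by the invariant chain Cd74 to endosomes, and are typical of B cells, dendritic cells and activated macrophages. Microglia at rest make little class II, and interferon-gamma is the best known signal that raises it, through Ciita. C57BL/6 mice make no I-E at the surface, because their I-E alpha gene is a pseudogene, although the beta gene H2-Eb1 is intact.

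Most of the set lies in the MHC region of chromosome 17 (GRCm38, positions from GENCODE M21). Tapbp lies at 33915899 to 33929292, H2-K1 at 33996017 to 34000347, Tap1 at 34187553 to 34197225 and H2-Ab1 at 34257689 to 34269419. H2-Aa lies at 34282744 to 34287823, H2-Eb1 at 34305867 to 34316674 and H2-D1 at 35262730 to 35267499. B2m lies on chromosome 2 at 122147686 to 122153083. The reads are tags from the 3′ ends of transcripts, so what else lies there bears on the counts. In the last 500 bases, Patl2 overlaps B2m on the opposite strand and Mir5107 lies within Cd74, while the other 7 measured genes share that stretch with no annotated gene. None of the 41 windows of 100 bases taken every 10 bases from the last 500 bases of each transcript occurred exactly in a transcript of another gene, so exact copies do not confuse the closely related H2 genes at their 3′ ends.

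The promoters of class I and class II genes are known to share an arrangement called the SXY module, in which an X2 box and a Y box stand at a nearly fixed distance. The windows below, from RefSeq promoters (GRCm38.p6), show this shared stretch in the heavy chains, in B2m and in the class II chain genes that have an entry. Capitals mark the X2 core TGACG and the inverted CCAAT box ATTGG. Each window is 50 bases long and ends upstream of the RefSeq transcript start. They are chr17:34000354-34000403 (minus strand) for H2-K1, chr17:35262978-35263027 (plus) for H2-D1, chr2:122147594-122147643 (plus) for B2m, chr17:34287862-34287911 (minus) for H2-Aa and chr17:34305768-34305817 (plus) for H2-Eb1.
H2-K1: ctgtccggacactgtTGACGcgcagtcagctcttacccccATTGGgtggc
H2-D1: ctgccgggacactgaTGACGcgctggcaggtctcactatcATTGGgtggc
B2m: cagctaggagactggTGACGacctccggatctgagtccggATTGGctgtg
H2-Aa: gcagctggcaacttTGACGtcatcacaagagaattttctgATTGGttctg
H2-Eb1: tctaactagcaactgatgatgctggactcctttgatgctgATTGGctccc

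The class I heavy chains and B2m have 20 bases between the boxes and H2-Aa has 21, while the letters TGACG are not in the 250 bases before the start of H2-Eb1. Searched on both strands of those 250 bases, TGACG stood in 17.8% of the 32851 promoters and ATTGG in 33.8%. TGACG followed by ATTGG after 20 or 21 bases stood in 0.152%, or 50 promoters. Tap1 has both sets of letters but not at that distance, and Tapbp has ATTGG alone. Other forms of the X2 box were not searched, so H2-Eb1 and Tapbp are not shown to lack one. The H2-K1 and H2-D1 windows share 40 of their 50 bases.

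Further upstream the heavy chain genes carry the enhancer known to respond to NF-kB and interferon. It is shown because the letters of H2-K1 and H2-D1 are nearly the same here. H2-D1 and not H2-K1 was called in the results, but the differences of these genes were not tested against each other. Any part of these letters in the levels was not tested. The first run of capitals marks a palindromic kB site of 11 bases. The next capitals mark an interferon response element, searched as GAA or GAAA followed after 2 bases by GAAA on either strand and read here on the other strand. The windows lie at chr17:34000425-34000462 (minus) for H2-K1 and chr17:35262919-35262956 (plus) for H2-D1. In B2m capitals mark the interferon element alone, at chr2:122147542-122147571 (plus). Other forms of kB site were not searched, so the lower-case letters do not show that B2m lacks one.
H2-K1: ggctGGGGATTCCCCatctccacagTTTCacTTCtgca
H2-D1: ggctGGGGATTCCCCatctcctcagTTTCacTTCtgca
B2m: gaacatGAAActGAAAatgggaaagtccct

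These 38 bases of H2-K1 and H2-D1 differ in 1 base, with 37 identical. The exact letters of this kB site stood in 10 of the 32851 promoters (0.0304%) and the interferon element in 8.82%. Neither these kB letters nor the interferon element was found in the windows of Tap1, Tapbp, H2-Aa or H2-Eb1. Whether these genes or B2m carry a kB site of other letters was not tested. A match is a description of the sequence, and no factor's binding was measured.

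Levels are given in CPM, read counts per 1000000 reads with each library's total adjusted by TMM, a scaling that takes most genes as unchanged. The TMM factors were 0.828 to 0.927 in donor, 0.883 to 1.23 in acceptor and 1.08 to 1.17 in control libraries. Calls are from edgeR's quasi-likelihood test over all genes tested, with Benjamini-Hochberg adjusted p under 0.05, and log2 differences carry a standard error (SE). Between donors and acceptors 62.6% of all genes were called over the 6 times. Whether most genes were unchanged, as TMM takes them to be, was not tested. Libraries held 8649169 to 15910662 reads. The library numbers in the sample titles form 3 unbroken runs of 13, each with every group once, and 37 of the 39 libraries correlated best with their own run. The labels do not say what the runs are. They are called runs 1 to 3, and values by run stand beside the results. In bulk RNA, fewer cells that use a gene and less RNA per cell cannot be told apart. Summed over 12 microglia and macrophage markers, control libraries had 11774 to 12401 CPM. Acceptor libraries had 10311 to 39696, and donor libraries 4012 to 6765. The highest sum belonged to replicate 2 of acceptors at 300 min, the library with the fewest reads, which stood apart for several genes of the set. Results that rest on it are given with and without it.

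Among the class I genes, H2-K1 and H2-D1 encode the classical heavy chains. H2-K1 was measured at 3038 ± 705 CPM in the control (SD, n = 3), at 3148 ± 598 in donors at 0 min and at 2950 ± 594 in acceptors at 0 min. The control libraries had 2885, 2422 and 3807 CPM, the donors 3834, 2872 and 2737, and the acceptors 2817, 2433 and 3599. The 3 groups overlapped. Over all times the 18 donor libraries ranged from 2593 to 4061 CPM with a median of 2885, and the 18 acceptor libraries from 2151 to 3693 with a median of 2806. Group means lay between 2633 CPM (acceptors at 300 min) and 3220 CPM (donors at 30 min). All 6 donor means stood above the control and the control above all 6 acceptor means, but no 2 neighbours in this order were free of overlap.

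H2-K1 also varied with the run. In acceptors the medians were 3569 CPM in run 1, 2806 in run 2 and 2390 in run 3, and in donors 2773, 2718 and 3959. Run 1 was thus highest in acceptors and run 3 in donors. The control followed the acceptors, with 3807 CPM in run 1 and 2422 in run 3. Within a run the spread over time was smaller than between some runs. The highest donor value was 1.12, 1.16 and 1.09 times the lowest over the 6 times of runs 1, 2 and 3. Acceptors of run 2 stayed within 1.04 times, those of run 3 within 1.36 times, from 2178 to 2959 CPM with the highest at 300 min, and those of run 1 within 1.08 times without the library that stood apart (1.72 times with it). The runs overlapped in donors and in acceptors, and run 3 of the donors alone lay clear of the other donor runs. Donors had the lower median in runs 1 and 2 and the higher one in run 3.

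**Figure D1:**
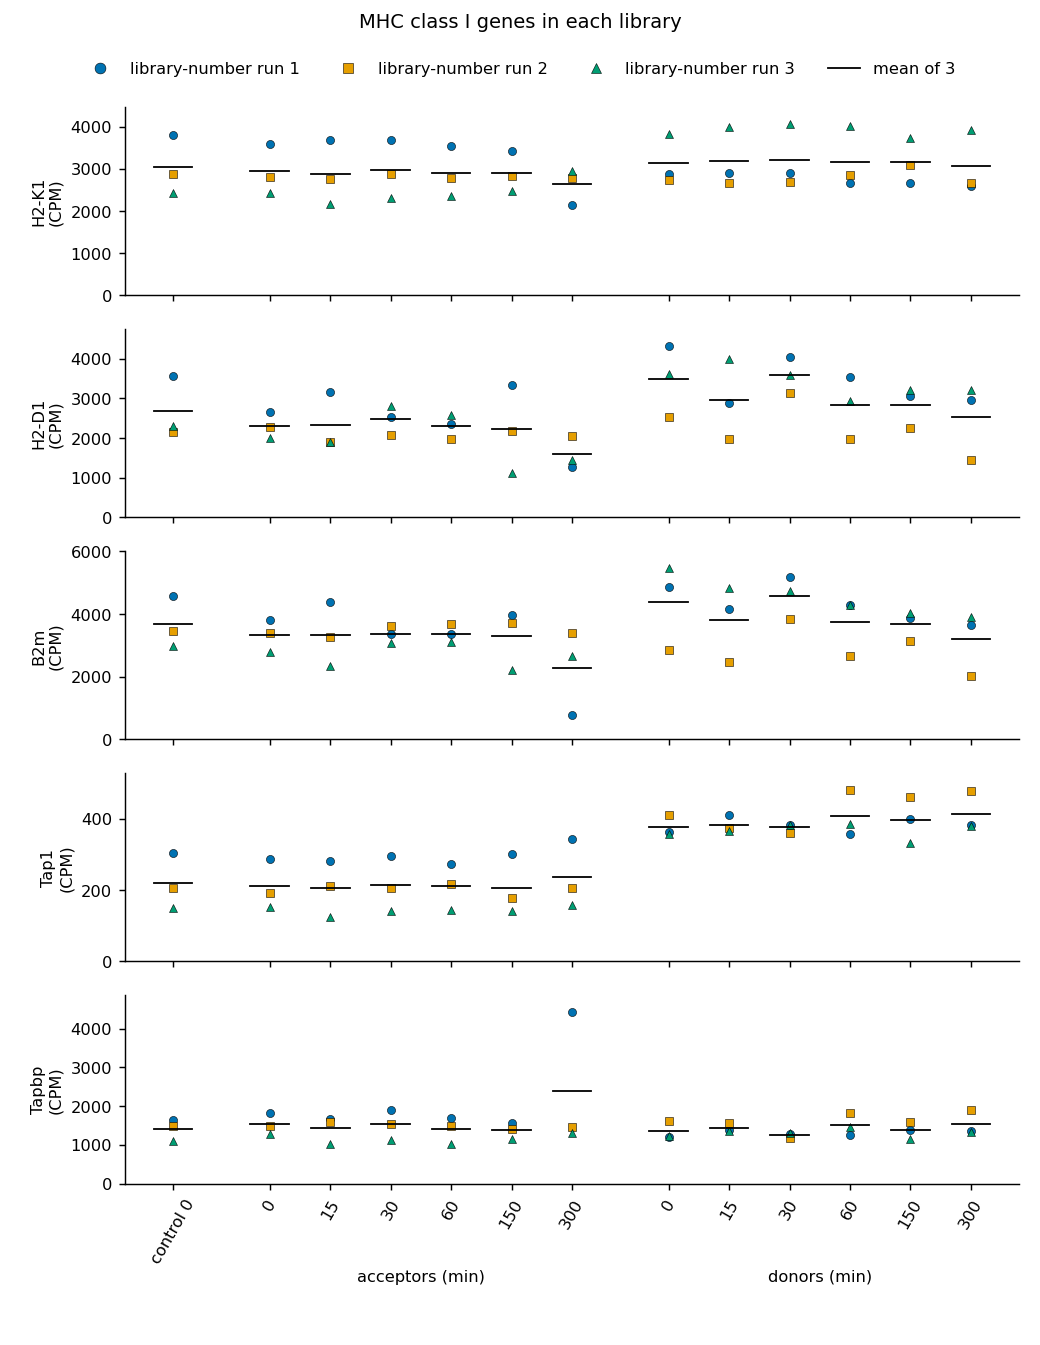
CPM of H2-K1, H2-D1, B2m, Tap1 and Tapbp (vertical axes, from 0) in each of the 39 libraries, by group along the horizontal axis with times in min; markers give the library-number run and black lines the mean of 3 libraries. Tap1 lies at 331 to 479 CPM in donors and at 125 to 343 in acceptors, and for H2-K1 the donor libraries of run 3, at 3734 to 4061 CPM, lie above the other donor libraries.

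H2-D1 was measured at 2162, 2314 and 3557 CPM in the control, at 3610, 4317 and 2530 in donors at 0 min, and at 2281, 1993 and 2665 in acceptors at 0 min. Donors overlapped with both other groups. The donor libraries of all times ranged from 1446 to 4317 CPM with a median of 3097, the acceptor libraries from 1120 to 3352 with a median of 2135. Taken as the mean over the 6 times, H2-D1 was higher in donors by 0.47 ± 0.13 log2 units (3040 against 2204 CPM, edgeR adjusted p = 0.00280), and 6 of 18 donor libraries exceeded every acceptor library. By run, the donor median was higher in each, at 3306 against 2600 CPM, 2121 against 2061, and 3408 against 1944. The call was lost when libraries were scaled by total counts (0.13 log2 units, adjusted p = 0.438).

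B2m encodes the light chain that every class I molecule needs. It had 3468, 2969 and 4583 CPM in the control, 5461, 4876 and 2844 in donors at 0 min, and 3405, 2786 and 3808 in acceptors at 0 min. The groups overlapped. Donors of all times ranged from 2018 to 5461 CPM with a median of 3974, and acceptors from 772 to 4402 with a median of 3352. The lowest acceptor value, 772 CPM, was the library that stood apart, and the next lowest acceptor library had 2203. Over the 6 times B2m differed by 0.31 ± 0.14 log2 units between donors and acceptors, with an edgeR adjusted p of 0.0591, which missed the threshold. It passed with limma-voom (adjusted p = 0.0499) and DESeq2 (0.0492). It also passed without any 1 of 7 libraries: replicate 1 of acceptors at 15 or 150 min, replicate 3 of acceptors at 300 min, replicate 1 of donors at 15 or 300 min, and replicate 3 of donors at 0 or 60 min. By run the medians were 4227 against 3581 CPM, 2761 against 3518 and 4519 against 2718, so donors were lower in run 2. B2m per heavy chain read, the sum of H2-K1 and H2-D1, had medians of 0.627 in the control, 0.620 in acceptors and 0.618 in donors. Its range was 0.492 to 0.745 in donors, and in acceptors the lowest ratio was 0.225. Without scaling between libraries, H2-K1, H2-D1 and B2m together held a median of 0.914% of all reads in donors. The median was 0.943% in acceptors and 0.921% in the control.

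Tap1 encodes one subunit of the peptide transporter, and it was the class I gene of the set with the clearest difference. The control had 207, 150.0 and 304 CPM, donors at 0 min 356, 362 and 410, and acceptors at 0 min 192, 154 and 288. Every donor library at 0 min stood above every control and acceptor library. Against the control the difference was 0.77 ± 0.31 log2 units (376 ± 29.8 against 221 ± 78.0 CPM, SD, n = 3), with an edgeR adjusted p of 0.0811, which missed the threshold. It passed without control replicate 3, the highest control library (1.07 log2 units, edgeR adjusted p = 0.0326), and with the runs as blocks (0.84 log2 units, adjusted p = 0.00680). The block takes a run to act alike in all groups, and the runs do not pair these groups by the rule given with the processing. Donors exceeded the control in each run, at 362 against 304, 410 against 207 and 356 against 150.0 CPM. Its adjusted p over the alternatives ran from 0.00680 to 0.324. At 300 min donors had 479, 381 and 384 CPM. The difference from the control was then 0.91 ± 0.31 log2 units (adjusted p = 0.0406). That call was lost in 6 of 14 alternatives: with total-count scaling (adjusted p = 0.146) and without control replicate 1 or 2 or any 1 of the 3 donor libraries (0.0600 to 0.204).

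Between donors and acceptors Tap1 was called at 15, 60 and 150 min, with 0.89 ± 0.31, 0.95 ± 0.31 and 0.94 ± 0.31 log2 units and edgeR adjusted p of 0.0383, 0.0271 and 0.0284. At 0, 30 and 300 min the differences were 0.83, 0.81 and 0.82 log2 units with adjusted p of 0.0524, 0.0609 and 0.0578. The size was thus nearly the same at the 6 times, and limma-voom and DESeq2 called all 6. As a mean over the times Tap1 was higher by 0.87 ± 0.13 log2 units (392 against 214 CPM, adjusted p = 4.71e-07), and 17 of 18 donor libraries exceeded every acceptor library. The exception came from the acceptor library that stood apart, at 343 CPM. Without it the difference was 0.93 over the 6 times and 1.19 at 300 min, where it then passed (adjusted p = 0.0125).

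By run, Tap1 was spread in acceptors and not in donors. Acceptor libraries had 274 to 343 CPM in run 1, 178 to 216 in run 2 and 125 to 159 in run 3, with no overlap between runs, and the control followed the same order. Donor medians were 383, 435 and 373 CPM. The excess of donors was smallest in run 1, where the acceptor median was 292 CPM, against 205 in run 2 and 142 in run 3. Per 1000 heavy chain reads, Tap1 had medians of 59.8 in donors, 41.3 in acceptors and 41.1 in the control.

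Tapbp encodes tapasin. The control had 1494, 1099 and 1636 CPM, donors at 0 min 1230, 1207 and 1618, and acceptors at 0 min 1492, 1278 and 1819. Donors of all times lay between 1162 and 1911 CPM and acceptors between 1012 and 1897, apart from the library that stood apart, with 4419. Tapbp was called in none of the comparisons by edgeR. The difference of donors from acceptors over the 6 times was -0.16 ± 0.12 log2 units (adjusted p = 0.263), and -0.03 without that library. With total-count scaling it was -0.49 and passed (adjusted p = 1.97e-04), which goes with a shift of the median of all genes to -0.42 under that scaling, against -0.08 with TMM.

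Of the class II chains, H2-Ab1, which encodes the I-A beta chain, was the only one called by edgeR's test. The control had 3.16, 1.40 and 1.69 CPM, from 35, 18 and 22 reads. Donors at 0 min had 9.52, 11.4 and 19.4 CPM, from 115, 161 and 175 reads, and acceptors at 0 min 1.29, 1.70 and 2.89 CPM. All 3 donor libraries were above all of the others. The difference from the control was 2.69 ± 0.60 log2 units (13.5 ± 5.25 against 2.08 ± 0.943 CPM, SD, n = 3, edgeR adjusted p = 0.00135), and it passed in all 14 alternatives (adjusted p 5.44e-05 to 0.0148). It was the only one of the 9 measured members called in that comparison, in which 19.7% of all genes tested were called, 10.3% higher and 9.34% lower. The share of the set is below that background.

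Over all times each of the 18 donor libraries exceeded each of the 18 acceptor libraries and each control library in H2-Ab1. Donors ranged from 7.71 to 24.4 CPM with a median of 15.1, and acceptors from 0.858 to 7.21 with a median of 2.01. The highest acceptor value, 7.21 CPM from 55 reads, was the library that stood apart, and the next highest was 4.48. H2-Ab1 was called higher in donors at each of the 6 times, by 2.78 ± 0.60, 2.72 ± 0.60, 1.97 ± 0.58, 3.52 ± 0.62, 2.69 ± 0.59 and 2.09 ± 0.58 log2 units at 0, 15, 30, 60, 150 and 300 min. The edgeR adjusted p ran from 7.79e-05 at 60 min to 0.0121 at 30 min. At 300 min the difference was 2.89 log2 units without the library that stood apart (adjusted p = 0.00194), and in the fit to the 6 libraries of that time alone no member passed.

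In the comparisons of a single time, edgeR's test called H2-Ab1 alone at 0, 30 and 300 min and H2-Ab1 with Tap1 at 15, 60 and 150 min, each higher in donors. Of all genes 22.8%, 21.9%, 22.6%, 22.2%, 22.1% and 23% were called at the 6 times in order, about as many higher as lower (10.2% lower at 15 and at 150 min, 9.69% at 60 min). As a mean over the 6 times H2-Ab1 was higher by 2.63 ± 0.24 log2 units (14.4 against 2.45 CPM, adjusted p = 3.18e-11). With Tap1 and H2-D1 this made 3 of 9 members higher and 0 lower, against 62.6% of all genes called, 29.5% higher and 33% lower. The median difference of the 9 members was 0.25 log2 units and that of all genes -0.08.

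**Figure D2:**
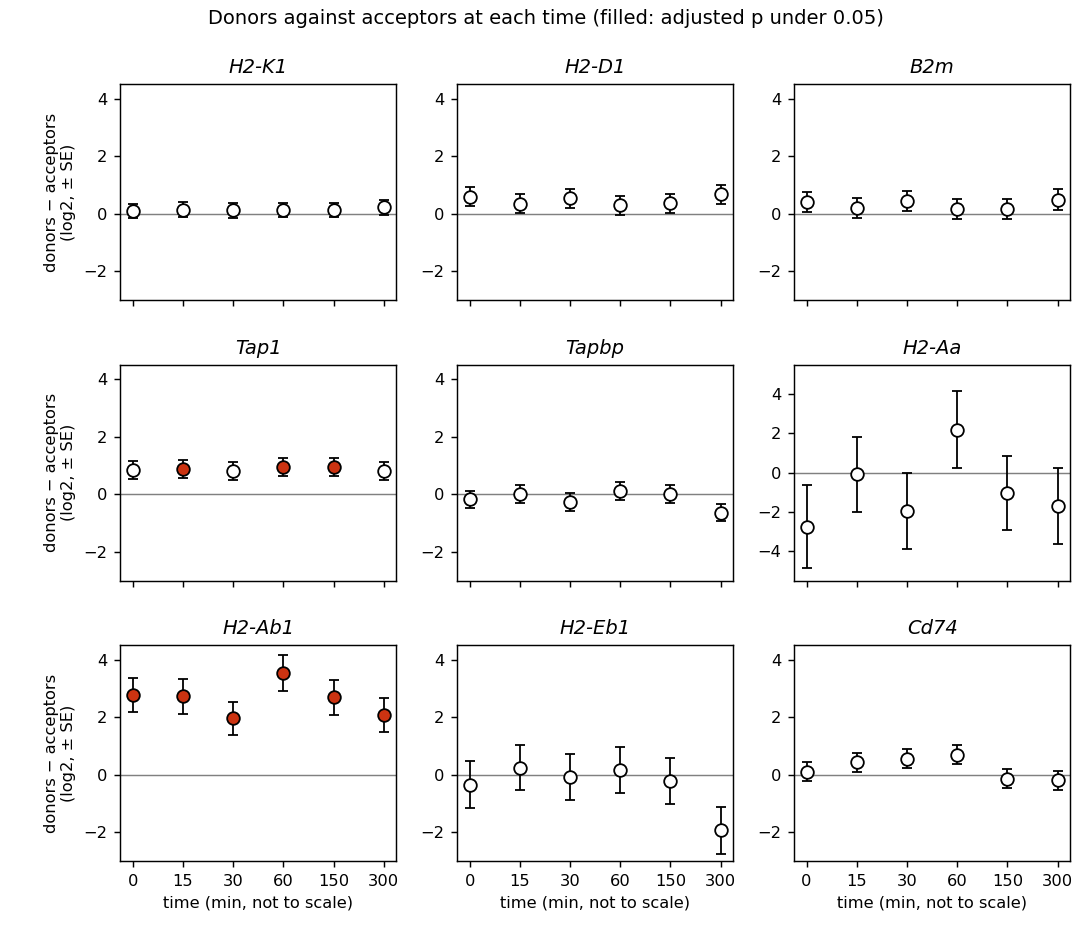
Difference between donors and acceptors (log2, vertical axes; H2-Aa has a wider range) at each time in min along the horizontal axis, for 9 genes; points are fitted values, bars ± 1 SE, and filled points have an edgeR adjusted p under 0.05. H2-Ab1 is filled at all 6 times, between 1.97 and 3.52, and Tap1 at 15, 60 and 150 min.

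Runs also differed in H2-Ab1. Donor medians were 15.3 CPM in run 1, 20.9 in run 2 and 8.07 in run 3, and the 6 donor libraries of run 3 held the lowest values of all donors, between 7.71 and 9.52. In acceptors the order was turned, with medians of 2.07 CPM in run 1, 1.20 in run 2 and 3.25 in run 3. Donors exceeded acceptors in every run, but the ratio of the medians was smallest in run 3, where both came closest.

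H2-Aa encodes the alpha chain that the I-A beta chain needs as its partner, and it was close to the limit of detection in most libraries. No read was found in 9 of 18 donor, 3 of 18 acceptor and 1 of 3 control libraries, and a count of 0 allows up to 0.181 to 0.414 CPM, for counting error only. The control had 0, 0.776 and 0.460 CPM. Donors at 0 min had 0.0828, 0.213 and 0 CPM, from 1, 3 and 0 reads, and acceptors 0.271, 1.47 and 0.577, from 4, 19 and 7. The donor values at 0 min lay below those of acceptors, but the donor library without a read had a floor of 0.333 CPM, above the lowest acceptor value. The counts were too low for the test (-2.75 ± 2.11 log2 units, edgeR adjusted p = 0.382). Over the 6 times the difference was -0.89 ± 0.79 log2 units (0.549 against 0.998 CPM, adjusted p = 0.334). It passed without replicate 1 of donors at 60 min, the donor library with the most H2-Aa reads, 41 (-2.02 log2 units), and with the runs as blocks (-1.36 log2 units, adjusted p = 0.0392). H2-Aa was called higher in donors in none of these.

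The reads of H2-Aa came mostly from run 3. That run held 301 of them and had a read in 13 of 13 libraries, against 49 reads in 10 libraries of run 1 and 16 reads in 3 libraries of run 2. The highest value was 4.58 CPM, in replicate 1 of acceptors at 30 min, and the highest donor value 3.36, both of run 3. In the other runs no library exceeded 0.795 CPM. The B cell gene Cd79b, part of the B cell receptor, had 62 reads in run 3, 18 in run 1 and 19 in run 2, and Ms4a1 22, 11 and 5. Cd79a, with 3, 7 and 12, and Ebf1, with 3, 0 and 11, had most reads in run 2. Over the 13 group means, Cd79b was among the 5 genes whose pattern was most like that of H2-Aa (Pearson r = 0.806), after Ndufv3 (0.871), Lrrd1 (0.832) and Zfp974 (0.811) and before Mrpl54 (0.796). The groups share libraries of the 3 runs and both genes have few reads, and any part of B cells in the result was not tested. Summed over the B cell list (Cd79a, Cd79b, Ms4a1, Ebf1 and Pax5, of which 4 had a row), the control had no read, acceptors had 0 to 1.64 CPM and donors 0 to 0.867.

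H2-Eb1, the I-E beta chain, had 1.26, 2.10 and 1.92 CPM in the control, 1.49, 1.35 and 0.555 in donors at 0 min, and 1.56, 1.39 and 1.40 in acceptors at 0 min. The groups overlapped, and the difference between donors and control was -0.62 ± 0.81 log2 units (edgeR adjusted p = 0.644). Over all times donors ranged from 0.555 to 6.62 CPM and acceptors from 0.155 to 7.47. At 300 min donors had 0.890, 1.67 and 0.741 CPM and acceptors 4.43, 7.47 and 0.902, which overlapped. That difference was -1.93 ± 0.83 log2 units, with an adjusted p of 0.0901, and -1.27 without the library that stood apart (0.344). H2-Eb1 was called in no comparison.

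**Figure D3:**
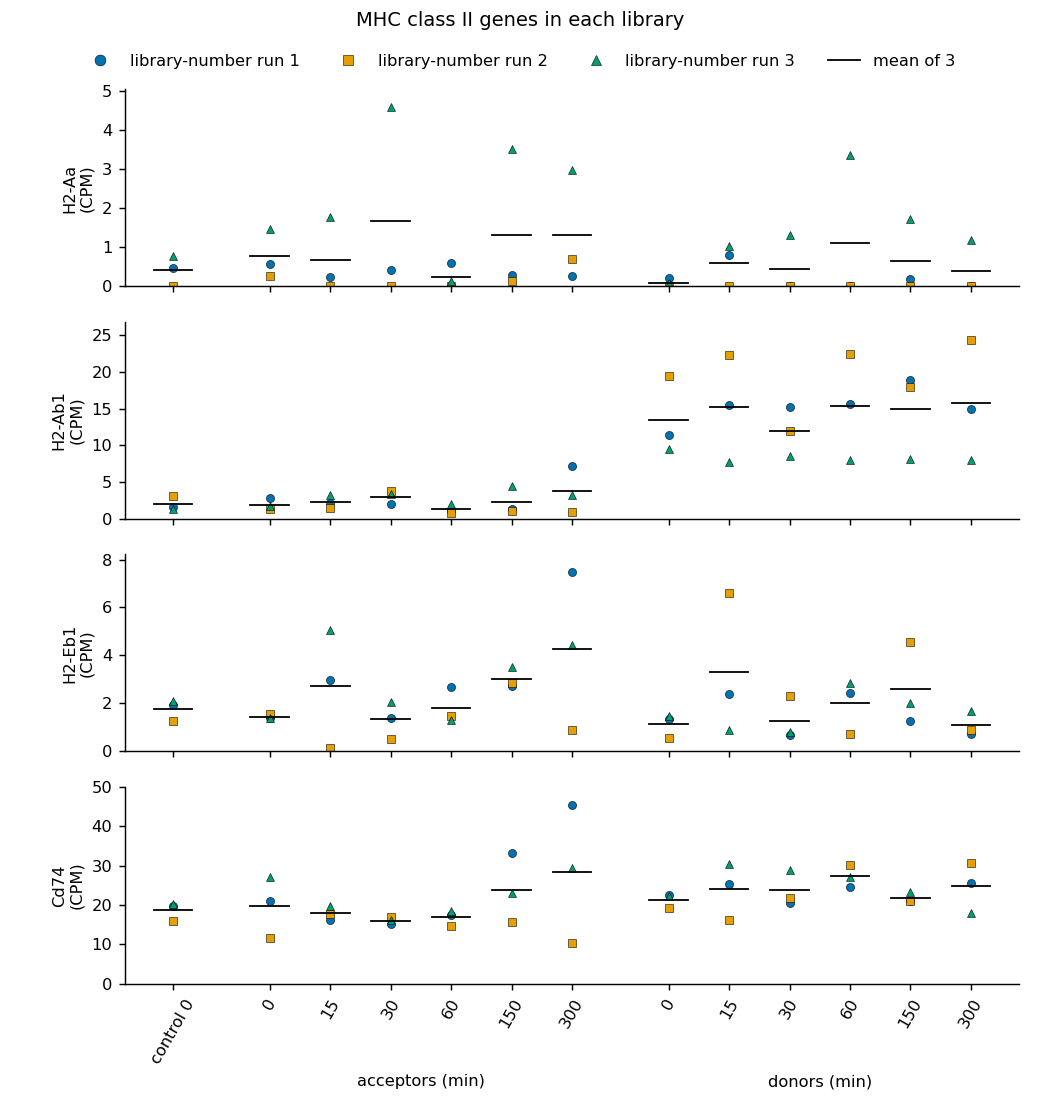
CPM of H2-Aa, H2-Ab1, H2-Eb1 and Cd74 (vertical axes, from 0) in each of the 39 libraries, by group along the horizontal axis with times in min; markers give the library-number run and black lines the mean of 3 libraries. H2-Ab1 lies above 7.7 CPM in all donor libraries, and H2-Aa is highest in libraries of run 3.

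Within a library the balance of the class II chains therefore differed. H2-Ab1 made up a median of 84.8% of the reads of H2-Aa, H2-Ab1 and H2-Eb1 together in donors (range 56.1% to 97.2%, from 106 to 242 such reads per library). In acceptors the median was 38.4% (24.0% to 90.5%, from 21 to 154 reads) and in the control 41.5% (32.7% to 71.4%, from 49 to 55 reads). The acceptor libraries over 80% were those of run 2 at 15 and 30 min, which had no H2-Aa read. The share does not depend on the scaling between libraries, and each 3′ tag stands for 1 transcript end whatever its length. Relative to 100000 reads of H2-K1 and H2-D1, the 3 chains had a median of 263 reads in donors (121 to 625), 78.1 in acceptors (34.7 to 436) and 87.5 in the control (55.1 to 90.2).

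**Figure D4:**
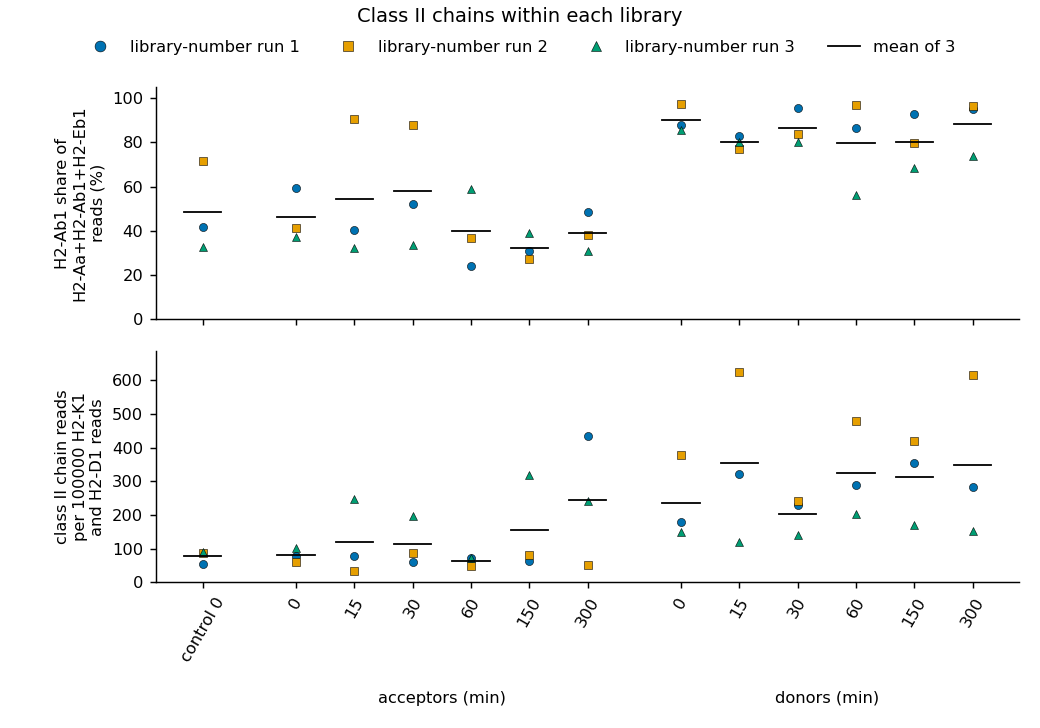
Upper panel, the share of H2-Ab1 among the reads of H2-Aa, H2-Ab1 and H2-Eb1 (%); lower panel, reads of these 3 chains per 100000 reads of H2-K1 and H2-D1, in each of the 39 libraries by group and time (min), with markers for the run and black lines for the mean of 3. Medians of the share are 84.8% in donors, 38.4% in acceptors and 41.5% in the control.

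Cd74 (chromosome 18, 60803848 to 60812652) encodes the invariant chain, which also serves as a receptor for the cytokine MIF. It had 16.0, 20.2 and 19.8 CPM in the control, 22.4, 22.4 and 19.3 in donors at 0 min, and 11.52, 27.0 and 21.03 in acceptors at 0 min. These overlapped. The difference between donors and control was 0.20 ± 0.33 log2 units (edgeR adjusted p = 0.728). Donors of all times lay between 16.3 and 30.7 CPM with a median of 22.9. Acceptors lay between 10.3 and 45.5 with a median of 17.6, and the 45.5 CPM was the library that stood apart. Over the 6 times the difference was 0.25 ± 0.13 log2 units (adjusted p = 0.111), and 0.33 without that library, where it passed (edgeR adjusted p = 0.0210), as it did with limma-voom (0.32, adjusted p = 0.0463). By run the donor median was higher in each, at 23.5 against 19.3 CPM, 21.4 against 15.1 and 25.3 against 21.4. Read against the class II chains, Cd74 had 1.45 reads per chain read in donors at the median, 3.98 in acceptors and 4.73 in the control.

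Time in co-culture moved none of the 9 genes past the threshold. In donors no member was called at 15, 30, 60, 150 or 300 min against 0 min, nor in the F test for any change over the 6 times. This held for edgeR, limma-voom and DESeq2 without the runs as blocks (each 0 of 9). In that edgeR fit 0 of 9 had an unadjusted p under 0.05. The test over all genes made no call in donors either (0%, with 252 genes at an unadjusted p under 0.05). H2-Ab1 in donors had means of 13.5, 15.2, 11.9, 15.4, 14.9 and 15.8 CPM over the 6 times, and Tap1 376, 383, 376, 408, 396 and 414. The lowest means of H2-D1 and B2m in donors were those at 300 min, 2537 ± 954 and 3199 ± 1031 CPM, against 3486 ± 900 and 4394 ± 1374 at 0 min (SD, n = 3). The differences were -0.46 ± 0.32 and -0.46 ± 0.35 log2 units, both with an edgeR adjusted p of 1.00. With the runs as blocks they were -0.52 and -0.48 (edgeR adjusted p of 0.236 and 0.183), and every run had the lower value at 300 min. That fit, to the 18 donor libraries, was chosen after seeing the data. Its unadjusted p were 0.00463 and 0.00137. For any change over the 6 times they were 0.0162 and 0.00451, with adjusted p of 0.763 and 0.656. H2-D1 at 60 min against 0 min had an unadjusted p of 0.0408 there (adjusted 0.860). 

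In acceptors likewise no member was called at any later time or in the F test by edgeR, limma-voom or DESeq2. Of all genes, 2 were called in the F test (0.0153%), and against 0 min 0, 0, 1, 2 and 1 at the 5 later times (0%, 0%, 0.00767%, 0.0153% and 0.00767%). At an unadjusted p under 0.05 the single member was Tapbp at 300 min, 0.64 ± 0.31 log2 units higher (adjusted p = 0.610) and -0.15 without the library that stood apart. Means at 300 min against 0 min were 1592 against 2313 CPM for H2-D1, 2271 against 3333 for B2m, 4.27 against 1.45 for H2-Eb1 and 28.4 against 19.9 for Cd74. Without that library the differences were -0.40, -0.14, 0.87 and 0.001 log2 units. The time courses of donors and acceptors were not shown to differ for any member (0 of 9 by edgeR, limma-voom and DESeq2, and 0 of 9 at an unadjusted p under 0.05), where 0.0153% of all genes were called.

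Acceptors before co-culture were compared with the control next. No member was called by edgeR, limma-voom or DESeq2 and none had an unadjusted p under 0.05. Over all genes edgeR also made no call (0%, with 263 genes at an unadjusted p under 0.05). Differences of the class I genes ran from -0.21 log2 units for H2-D1 to 0.12 for Tapbp, and H2-Ab1 differed by -0.09 ± 0.61. At 300 min acceptors against control gave no member either, 0 of 9 by limma-voom and DESeq2 too, with H2-D1 (-0.75 ± 0.33 log2 units, adjusted p = 0.298) and Tapbp (0.76 ± 0.31, 0.271) at an unadjusted p under 0.05. Without the library that stood apart these were -0.61 and -0.03 log2 units. Of all genes 0.023% were called there. Donors at 300 min against control gave H2-Ab1, at 2.92 ± 0.60 log2 units (adjusted p = 6.36e-04), and Tap1, 2 of 9 members against 18.1% of all genes.

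Across the 13 group means of log2 CPM, Tap1 and H2-Ab1 followed each other (Pearson r = 0.986), as did H2-D1 and B2m (0.972) and H2-K1 and H2-D1 (0.942). H2-Ab1 and H2-Aa did not (-0.24). These are descriptions over 13 groups that fall into donors and the rest and share the 3 runs. The 5 genes with patterns most like that of H2-K1 were Uhrf2 (0.988), Pik3r5 (0.987), Ube2q1 (0.984), Mov10 (0.983) and Rnf114 (0.978).

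Other genes of the pathways were taken from 5 lists. Of 12 genes for class I peptide loading, 5 were higher and 2 lower in donors over the 6 times, where 62.6% of all genes were called, 29.5% higher and 33% lower, so the share called was near that of all genes. They had a median of 0.15 log2 units against -0.08 for all genes. Tap2, the partner subunit of the transporter, was higher by 1.42 ± 0.42 log2 units (11.4 against 3.82 CPM, edgeR adjusted p = 0.00427). Its medians were 7.15 CPM in donors, 2.94 in acceptors and 7.03 in the control. Donor libraries ranged from 0.556 to 55.7 CPM and control libraries from 1.79 to 27.05, so donors did not stand above the control. Nlrc5, the regulator of class I genes, was higher by 0.70 ± 0.14 (67.9 against 42.0 CPM), Psme2, an activator subunit of the proteasome, by 0.69, and Psmb8, an immunoproteasome subunit, by 0.57. Psmb9, which shares a bidirectional promoter with Tap1, was at 20.2 against 15.0 CPM and did not pass (adjusted p = 0.106).  Erap1, which trims peptides, was lower (-0.97 ± 0.10 log2 units), at 22.8 against 44.4 CPM. Against the control at 0 min Erap1 alone passed, being lower (adjusted p = 0.0407).

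Of 11 nonclassical class I genes 7 were higher in donors over the 6 times and 0 lower, where 62.6% of all genes were called, 29.5% higher and 33% lower. They had a median of 0.90 log2 units, also with H2-Q10 at its bound. H2-Q6 was higher by 1.87 ± 0.22 log2 units (115 against 31.8 CPM), with every donor library above every acceptor library, and H2-Q7, which encodes Qa-2, by 1.88 ± 0.26 (284 against 77.4 CPM). Mr1, which presents microbial metabolites, was higher by 1.73 ± 0.20. H2-Q10 had no read in the 18 acceptor libraries. In donors it reached 2.06 CPM, with a median of 0.290, at most 29 reads in a library and no read in 6 of 18 libraries. The donor mean was at least 40.3-fold higher against a floor of 3 counts over all acceptor libraries. That bound covers counting error only and not the spread between libraries. H2-Q6 and H2-Q7 were also called against the control at 0 min, with edgeR adjusted p of 0.0367 and 0.0449. These genes are close copies. At the 3′ end of H2-Q7, 2 of 41 windows of 100 bases occur in the related gene H2-Q5. In H2-Q6 2 of 41 windows occur in other genes, which include Cd59b and Efr3a and these are not H2 genes. The counts of H2-Q6 and H2-Q7 are thus less certain than those of the classical genes.

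The class II side was mixed. Of 12 genes for loading and turnover, 5 were higher and 3 lower over the 6 times, and of 10 genes for class II transcription 4 were higher and 3 lower, where 62.6% of all genes were called, 29.5% higher and 33% lower. Both shares called were near that of all genes. H2-Ob, a chain of the DO molecule that restrains loading, was at 0.879 against 0.227 CPM (2.43 ± 0.71 log2 units) and Ctsl, a cathepsin, at 1269 against 605 (1.07 ± 0.17). H2-DMa, which with H2-DMb helps to load peptides, was higher by 0.48 ± 0.19 log2 units. H2-DMb2 was lower by 1.40 ± 0.47, at 0.569 against 1.39 CPM, with few reads and none in 2 donor libraries. Ctss, the cathepsin that trims the invariant chain, was at 1754 against 2954 CPM (-0.75 ± 0.10). Among the transcription genes, Rfx5 and Rfxank encode subunits of one complex that binds the X box, and they moved apart. Rfx5 was at 8.96 against 14.8 CPM (-0.74 ± 0.11) and Rfxank at 13.6 against 7.28 (0.92 ± 0.11). Against the control at 0 min both were also called, Rfx5 at 6.49 against 19.99 CPM (-1.63 ± 0.29, edgeR adjusted p = 8.7e-05) and Rfxank at 12.96 against 6.52. Hdac2, a deacetylase, was lower over the 6 times (-0.57 ± 0.15) and Rfxap, the remaining subunit, higher (0.43 ± 0.09).

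Of 8 genes of the interferon-gamma signal 4 were higher and 2 lower over the 6 times, where 62.6% of all genes were called, 29.5% higher and 33% lower. Ifngr1, the ligand-binding receptor chain, was lower (-1.55 ± 0.10 log2 units), at 41.4 against 121 CPM, with every donor library below every acceptor library. The kinases Jak2 (61.2 against 32.2 CPM) and Jak1 (492 against 274) and the transcription factor Irf8 (383 against 213) were higher, and the transcription factor Irf2 was lower (29.9 against 53.8). Irf1, a transcription factor induced by interferon-gamma, was at 108 against 117 CPM and did not pass (adjusted p = 0.283). Against the control at 0 min Jak2, Jak1 and Irf8 were higher and Ifngr1 lower.

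**Figure D5:**
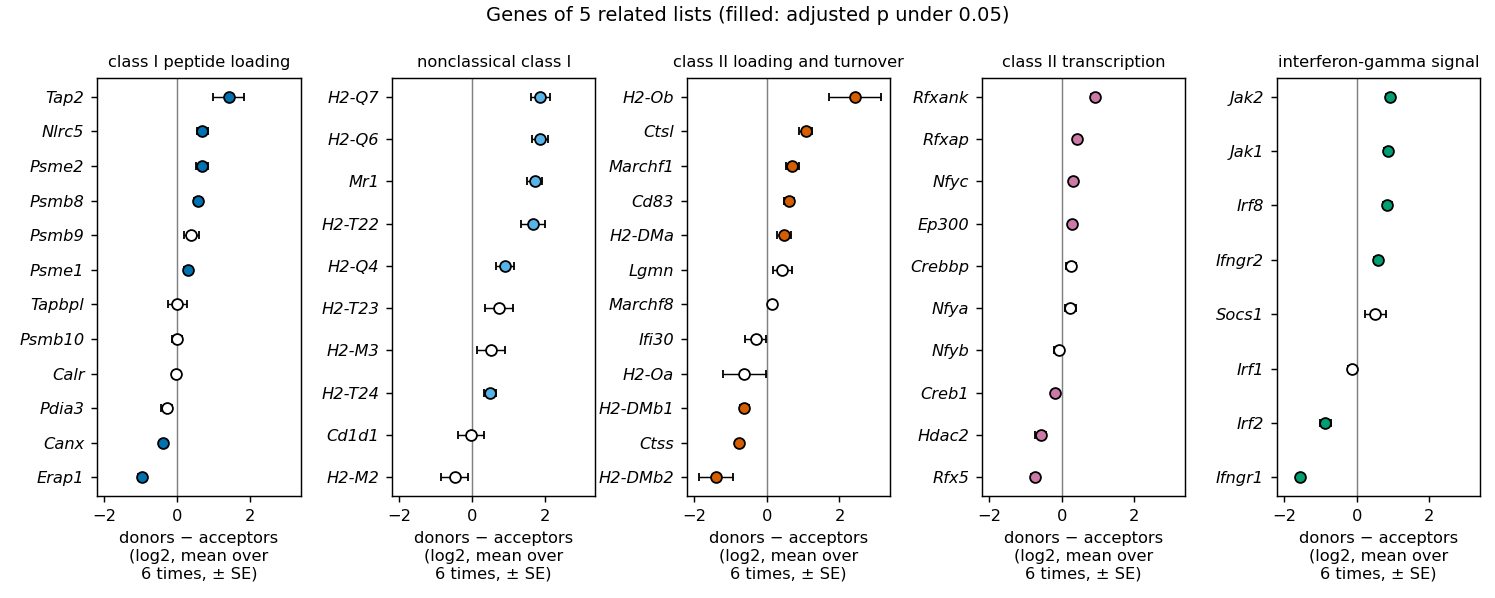
Difference between donors and acceptors as the mean over 6 times (log2, horizontal axes, bars ± 1 SE) for the genes tested of 5 lists; filled points have an edgeR adjusted p under 0.05. H2-Q10, without a read in acceptors, is not drawn; H2-Q7, H2-Q6 and Mr1 lie between 1.73 and 1.88, and Ifngr1 at -1.55.

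Some markers of other cells moved with H2-Ab1, and their part in the result was not tested. Over the 6 times 2 of 5 tested dendritic cell markers were higher in donors, Xcr1 and Ccr7, and 2 were lower. The single tested B cell marker was lower, and of 8 tested border macrophage markers 1 was higher and 6 lower. Of all genes 62.6% were called in that comparison, 29.5% higher and 33% lower. Of 9 dendritic cell markers 6 had a row, and their sum ran from 9.65 to 21.7 CPM among control libraries, 12.03 to 49.1 among acceptors and 56.6 to 112 among donors. Most of it was Xcr1, at 85.0 CPM in donors against 10.5 in acceptors. Clec9a had at most 12 reads in the 13 libraries of a run, Zbtb46 was at 0.127 against 0.491 CPM, lower in donors, and Itgax at 3.95 against 7.00. The 10 border macrophage markers summed to 354 to 752 CPM in donors and 711 to 990 in acceptors. Of the 12 microglia and macrophage markers 8 were lower and 1 higher in donors against control at 0 min, where 19.7% of all genes were called, 10.3% higher and 9.34% lower. Fibroblast and vascular markers, 6 of 8 with a row, had sums of 0.388 to 1.38 CPM in control libraries and 0.0866 to 5.66 in acceptor libraries. Donor libraries had 11.003 to 21.6. Most of the donor sum was Dcn (mean 7.11 CPM against 0.122 in acceptors) and Pecam1 (7.35 against 0.587). The remaining genes were near the acceptors: Col1a1 at 0.381 against 0.427 CPM, Col1a2 at 0.431 against 0.366, Col3a1 at 0.0705 against 0.106 and Cdh5 at 0.203 against 0.195. The 7 astrocyte markers summed to 5.56 to 20.04 CPM in donors and 12.78 to 33.7 in acceptors, and the 2 of 7 T and NK cell markers with a row to 0 to 3.34 and 3.59 to 17.1. Most of that last sum was Cd4, with means of 1.21 CPM in donors and 8.86 in acceptors. Cd3d was at 0.0254 and 0.0644.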

How the data were processed

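Per the labels' protocols, libraries were made with the QuantSeq 3′ FWD kit and read as single reads of 100 bases. STAR, Partek, DESeq2 and the mm10 build are named in the submitters' processing notes, without versions or strand setting. Raw read counts per gene symbol were taken as deposited by the authors, and no unmapped columns remained. The second deposited table holds normalized signal, which the authors made from the same counts with DESeq2, per the file headers; it differs from the counts by 1 factor per library (0.614 to 1.40) and was not tested.

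Genes passing edgeR's filter were fitted with 13 group means over all 39 libraries (TMM, quasi-likelihood test, R 4.3.3, edgeR 4.0.16). The steps were also run on counts simulated from the fitted model, which cannot show whether that model suits these libraries. The tested genes held 99.97% of reads. Contrasts were donors or acceptors against control, donors against acceptors at each time and as the mean of the 6 times, and times against 0 min, each adjusted by Benjamini-Hochberg over all tested genes. DESeq2 1.42.0, limma-voom 3.58.1, other scalings and filters, the run block, fits to the compared groups and leaving out each library were alternatives. A fit of 1 population with the run block was chosen after seeing the data. Runs of library numbers pair the groups where all 3 same-run pairs of deviations correlated above 0.1: all acceptor times, acceptors against control at 0 min, donors at 15, 30, 60 and 300 min against 0 min, and donors against acceptors at 15 min. The members and lists were chosen with earlier results of these data known. Named genes are all members, up to 4 called genes with the largest difference per list, and Nlrc5, Rfx5, Irf1, Ifngr1, Psmb8, Psmb9, Ctss and H2-DMa. Some genes of the lists are not reported here. A count of 0 has a floor of 3 counts. Floors cover counting error only. Promoter letters come from RefSeq and gene positions from GENCODE M21.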

Additional observations from a re-analysis of the deposited data

How the results depend on the processing

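With total-count scaling, which moved the median of all genes to -0.39 log2 units for donors against control at 0 min and -0.42 for donors against acceptors over the 6 times, 6 small differences changed sign. Against control they became -0.32 for H2-K1, -0.11 for B2m and -0.17 for Cd74, and over the 6 times -0.21, -0.040 and -0.091. The cause was not tested. Leaving out 1 library moved H2-K1 against control between -0.12 and 0.25, and Tapbp between -0.21 and 0.060. The number of members called against control at 0 min, 1, was 2 with the replicate block by run, which added Tap1, and 1 to 2 with a library left out. For donors against acceptors at 0 min it went from 1 to 2 with DESeq2 size factors, the block, limma-voom, DESeq2 and the fit to the compared groups, and was 1 to 2 with a library left out. At 300 min it went from 1 to 2 with total-count scaling, the block, limma-voom and DESeq2, to 0 with the fit to the compared groups, and was 1 to 3 with a library left out. Over the 6 times it went from 3 to 5 with limma-voom and was 3 to 4 with a library left out. For donors at 300 min against control it went from 2 to 1 with total-count scaling and was 1 to 2 with a library left out. H2-Ab1 was called in all 44 alternatives over the 6 times and in all 14 of each comparison with the control or of 0 min. Of 563 values for single members under the alternatives, 529 kept direction and call. With few reads for H2-Aa and H2-Eb1, small differences in these chains may go undetected, and H2-Aa was called over the 6 times in 2 of 44 alternatives.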
